A study of Mus musculus with 10 samples.

Results

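Protocadherins are the largest family of cadherin-like cell surface proteins, and their genes were compared here between microglia sorted from mouse brain and whole brain tissue. Members were all protein-coding genes whose symbol begins with Pcdh, which gave 70 genes among 21970 protein-coding genes and 56748 genes in all. They fall into the alpha cluster with 14 genes, the beta cluster with 22, the gamma cluster with 22 and 12 non-clustered genes. The microglia group held 5 samples, each of 400000 CD11b+ cells sorted from brain, and the other group held 5 hemi-brains, called bulk brain below. Both groups came from young male mice of the C57BL/6 strain, and the labels give no treatment, no allele and no exact age. CD11b is carried by other myeloid cells as well as by microglia, and bulk brain is a mixture that itself includes microglia. Nothing in the labels ties each sample to its own animal, and p-values below therefore reflect sample-to-sample spread, which may be technical.

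Clustered protocadherins are encoded by tandem variable exons, each with its own promoter, on a single chromosome. In the alpha and gamma clusters each variable exon is spliced to constant exons shared by the whole cluster, while each beta gene is a single coding exon. Neurons choose promoters in part at random, aided by CTCF, cohesin and DNA methylation, and the resulting surface code lets the branches of one neuron recognise and avoid each other. The C-type isoforms at the end of the alpha and gamma clusters are not part of that random choice. Non-clustered protocadherins are separate genes of the delta-1 and delta-2 groups and a few others, known for roles in axon growth, cell sorting and synapse formation.

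Levels are given as CPM, the counts of a gene per unit of library size, after scaling each library with TMM factors, which adjust for differences in RNA composition. A log2 difference is microglia minus bulk brain from edgeR's quasi-likelihood test, with its standard error (SE), and a gene passed the test at an adjusted p below 0.05 over all 18969 genes tested. Total counts per library ranged from 25087489 to 28514509 in microglia and from 25845049 to 34709215 in bulk brain. Of all genes tested, 37.2% had higher and 43.9% had lower levels in microglia, and the median log2 difference was -0.14. All 10 microglia markers were higher in microglia. All 10 neuronal markers were lower, their summed level being 6.51 to 12.2 CPM in microglia and 6123 to 7245 CPM in bulk brain, and none was at 0 in microglia. Marker sums of other brain cells lay between 0.578% of bulk brain for oligodendrocyte precursors and 37.0% for endothelial cells. The endothelial list held 6 lower genes and 1 higher gene, Pecam1, and its sum without Pecam1 stood at 22.4%. The 6 border macrophage markers were all higher, at 465 to 600 CPM against 8.73 to 11.2 CPM. The part of these cells in the results below was not tested.

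Microglia held few protocadherin reads, and the gamma cluster supplied most of them. The summed level of all 70 genes was 81.5 ± 5.20 CPM (SD, n = 5) in microglia against 1351 ± 449 CPM in bulk brain, so that microglia stood at 6.03% of bulk brain. Within that sum, gamma genes held 88.0% ± 2.78 in microglia and 14.2% ± 4.42 in bulk brain, while non-clustered genes held 2.42% ± 0.966 in microglia and 69.7% ± 5.10 in bulk brain. Ranges of both shares were separate between the groups, since the gamma share ran from 84.0% to 90.9% in microglia and from 6.77% to 17.6% in bulk brain. In bulk samples, fewer cells of a type and less RNA per cell cannot be told apart.

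**Figure D1:**
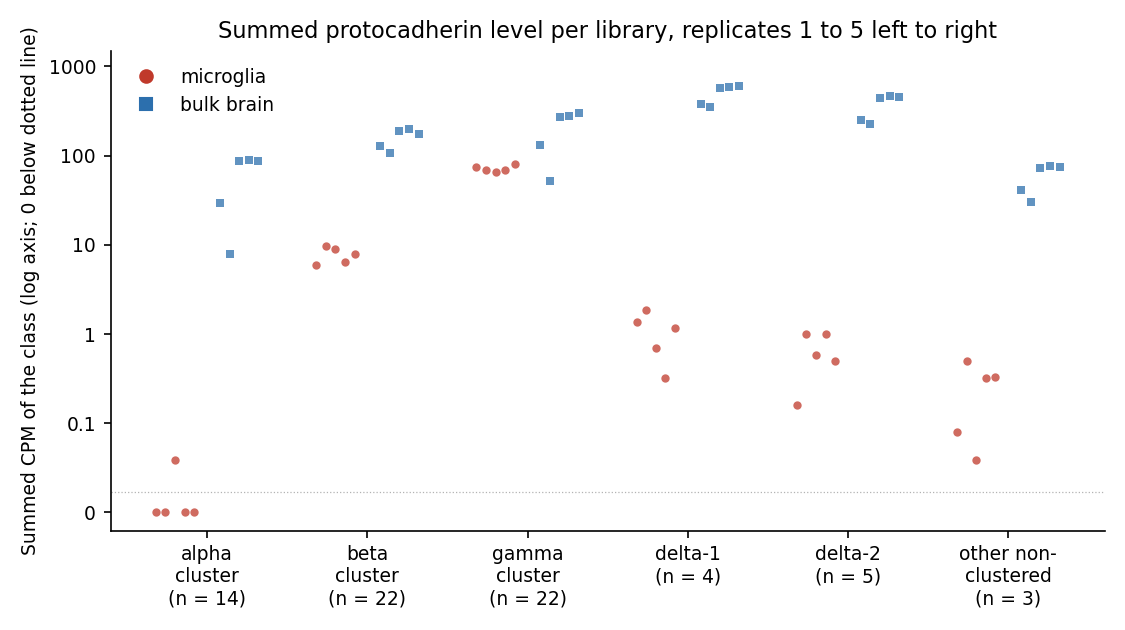
Summed CPM of each protocadherin class (log axis, values of 0 drawn below the dotted line) in every library, with replicates 1 to 5 from left to right in circles for microglia and squares for bulk brain. The gamma cluster is the class in which both groups overlap, through bulk brain replicate 2 at 51.9 CPM against 65.6 to 79.7 CPM in microglia.

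Of the 70 genes, 60 passed the filter on low counts, and 54 of these were lower in microglia, against 43.9% of all genes tested. The 3 genes that were higher, against 37.2% of all genes, belonged to the gamma cluster, and the 3 that did not pass the test were gamma genes too. Of the 60 tested genes, 46 had every microglia library below every bulk brain library, against 40.5% of all genes tested, and 2 had the reverse, against 34.2%. With the 10 untested genes included, 52 of the 70 lay wholly below bulk brain. Since 42 of the 60 tested genes passed the filter through their bulk brain counts alone, including all tested alpha and non-clustered genes, the count of lower genes describes the family and was not used as evidence. The median log2 difference was -6.83 over the 60 tested genes, and -6.68 with the 15 tested genes that had no microglia count placed at their lower bound.

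**Figure D2:**
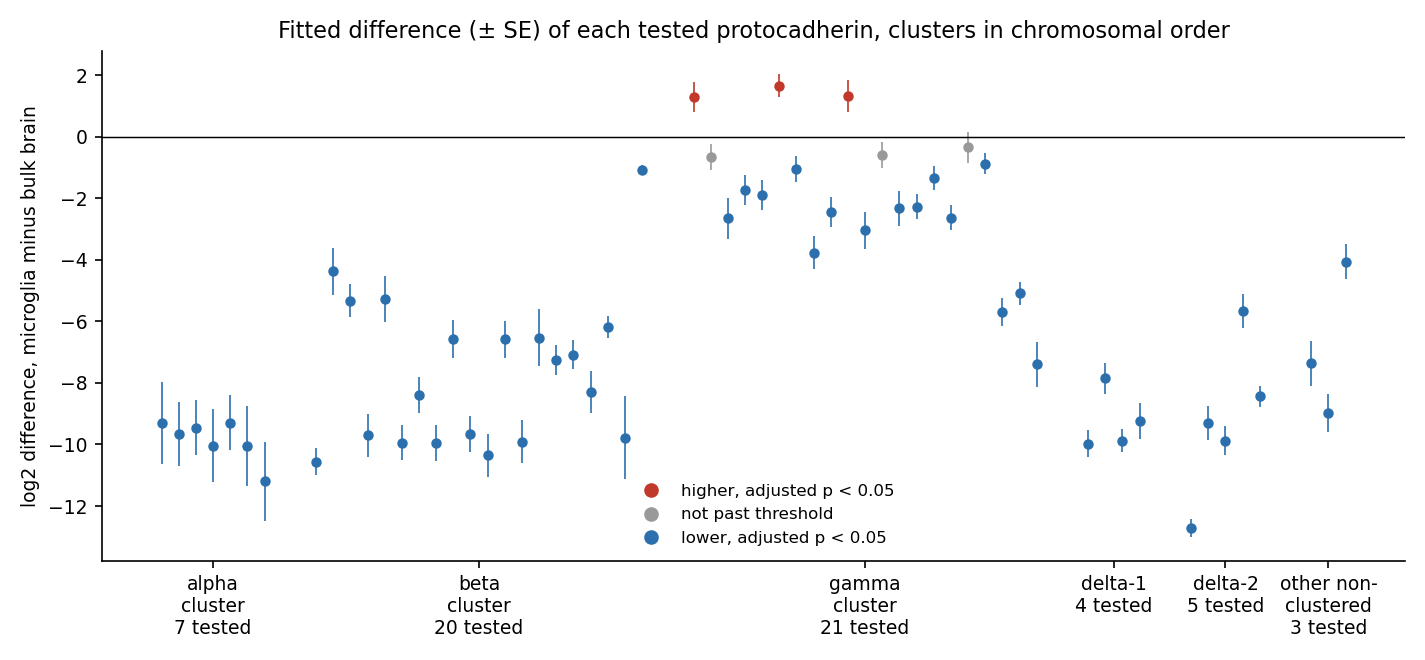
Fitted log2 difference, microglia minus bulk brain, with its SE for each of the 60 tested protocadherins, by class and, for the clusters, in chromosomal order. The gamma A and B genes lie between -3.77 and 1.67, whereas the C-type genes at the right end of the cluster lie at -5.09 and below, and for genes without any microglia count the plotted value depends on the prior count of the fit.

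The gamma cluster was the one class that stayed readily measurable in microglia. It spans positions 37794846 to 37974926 of chromosome 18 on the plus strand (GRCm39) and holds 12 A-type, 7 B-type and 3 C-type genes. Its summed level in microglia replicates 1 to 5 was 74.5, 68.8, 65.6, 69.9 and 79.7 CPM, and in bulk brain 131, 51.9, 269, 280 and 299 CPM. Microglia were even, whereas bulk brain replicates 1 and 2 were low, and replicate 2 lay below all microglia. The mean in microglia was 34.7% of that in bulk brain, 22.7% against bulk brain replicates 3 to 5 alone, and 72.9% against replicates 1 and 2 alone. Of the 21 gamma genes tested, 3 were higher, 15 lower and 3 not past the test, and against bulk brain replicates 1 and 2 alone 8 were lower. The median log2 difference over these 21 genes was -1.90.

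Pcdhgb2, a B-type gamma gene, was the most abundant protocadherin in microglia. It measured 21.9, 18.2, 19.9, 22.7 and 22.4 CPM in microglia replicates 1 to 5, and 5.25, 1.499, 8.76, 9.96 and 7.72 CPM in bulk brain. Every microglia library lay above every bulk brain library, and the spread in microglia was narrow. The log2 difference was 1.67 ± 0.38 (SE), with an adjusted p of 0.0015 in edgeR's quasi-likelihood test. It remained higher past the threshold in all 20 alternative analyses, with log2 differences from 1.10 to 2.53, the largest against bulk brain replicates 1 and 2 alone.

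Pcdhgb4, also of the B type, measured 7.78, 8.75, 8.08, 6.48 and 8.91 CPM in microglia, compared with 2.13, 0.259, 4.58, 3.94 and 5.002 CPM in bulk brain. Here too the groups were separate, with bulk brain replicate 2 far below the others. The log2 difference of Pcdhgb4 was 1.33 ± 0.52 (SE), with an adjusted p of 0.033 in edgeR's test. Pcdhga1, the first gene of the cluster, measured 9.05, 8.79, 5.24, 7.11 and 9.78 CPM in microglia against 1.48, 0.576, 4.11, 4.30 and 5.77 CPM in bulk brain. The lowest microglia library, replicate 3, fell below the highest bulk brain library, replicate 5, so the groups overlapped. Its log2 difference was 1.30 ± 0.49 (SE), with an adjusted p of 0.028 in edgeR's test.

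The calls for Pcdhgb4 and Pcdhga1 were less firm than that for Pcdhgb2. Over all alternatives their log2 differences ranged from 0.67 to 2.62 and from 0.59 to 2.85, the low ends against bulk brain replicates 3 to 5 alone and the high ends against replicates 1 and 2 alone. With median-of-ratios scaling their adjusted p-values in edgeR's test became 0.064 and 0.057. Leaving out microglia replicate 5, or bulk brain replicate 1, 3 or 4, likewise left Pcdhgb2 as the only protocadherin called higher. Without bulk brain replicate 1 the log2 difference of Pcdhgb4 was 1.07, with an adjusted p of 0.114 in edgeR's test, and that of Pcdhga1 was 0.97, with an adjusted p of 0.103. Pcdhgb4 also missed the threshold without microglia replicate 2 or 3, with library size as the only scaling and with no filter on low counts. Median-of-ratios scaling moved the median log2 difference of all genes from -0.14 to -0.31, and library size alone moved it to -0.33.

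Shares of the gamma sum do not depend on library scaling, and they add up to the same whole in each library, so a larger share of some genes goes with a smaller share of others. C-type genes held 1.52% ± 0.393 (SD, n = 5) of the gamma sum in microglia, from 0.852% to 1.80%, and 40.9% ± 1.53 in bulk brain, from 39.1% to 43.1%. B-type genes held 56.2% ± 2.64 in microglia and 19.4% ± 0.997 in bulk brain, with no overlap, while the A-type shares of 42.3% ± 2.73 and 39.7% ± 1.42 overlapped. These bulk brain means and ranges include replicates 1 and 2, whose gamma sums were low. Pcdhgb2, Pcdhga1 and Pcdhgb4 together held 51.6% ± 0.554 (SD, n = 5) of all gamma counts in microglia and 6.08% ± 0.907 in bulk brain, a description only, since they are the genes called higher in microglia. Pcdhgb2 alone held 29.4% ± 2.24 in microglia and 3.25% ± 0.555 in bulk brain. Pcdhgc5, a C-type isoform, held 0.392% ± 0.287 in microglia and 22.6% ± 2.77 in bulk brain.

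**Figure D3:**
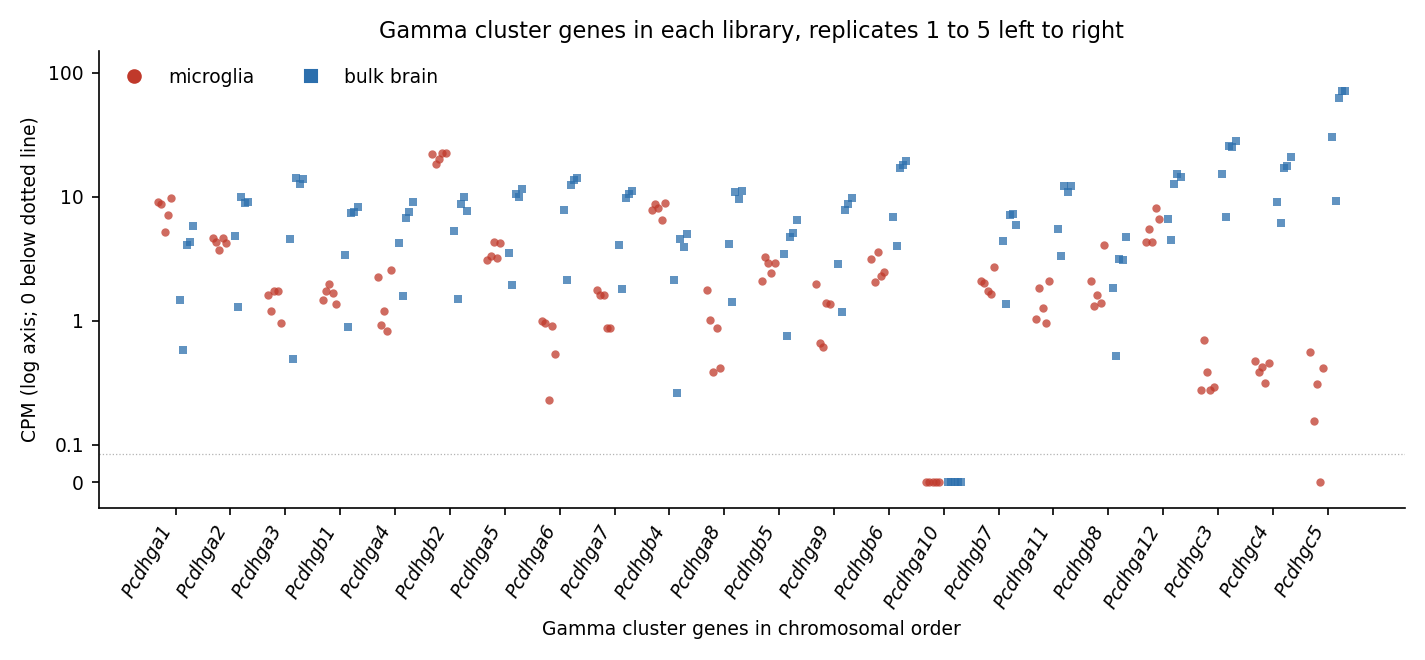
CPM (log axis, values of 0 below the dotted line) of the 22 gamma cluster genes in chromosomal order in each library, circles for microglia and squares for bulk brain, replicates 1 to 5 from left to right. Pcdhgb2 stands highest among the microglia points at 18.2 to 22.7 CPM, the 3 C-type genes at the right stay below 1 CPM in microglia, and bulk brain replicate 2 is the lowest bulk brain library for each gene that was counted.

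Among the other A-type and B-type genes, 12 were lower in microglia, with log2 differences from -3.77 for Pcdhga6 to -0.88 for Pcdhga12. Pcdhga2, Pcdhgb5 and Pcdhgb8 did not pass the test, with log2 differences of -0.66, -0.59 and -0.34 and adjusted p-values of 0.17, 0.22 and 0.55 in edgeR's test. The sum of the 7 B-type genes was 40.3 ± 2.86 CPM in microglia, compared with 40.3 ± 21.2 CPM in bulk brain, but the bulk brain libraries stood at 27.2, 9.31, 52.8, 54.8 and 57.6 CPM. Microglia were thus at 73.1% of bulk brain replicates 3 to 5 and at 221% of replicates 1 and 2, so the direction turns with the libraries. The sum of the 12 A-type genes in microglia was 36.6% of that in bulk brain. Of the 22 gamma genes, 20 had counts in every microglia library, and the exceptions were Pcdhga10 and Pcdhgc5.

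The C-type isoforms were low in microglia throughout. Pcdhgc3, thought to be the most broadly expressed gamma C-type gene, measured 0.278, 0.697, 0.385, 0.278 and 0.291 CPM in microglia against 15.3, 6.92, 25.8, 25.1 and 28.2 CPM in bulk brain. Levels did not overlap, and the log2 difference was -5.69 ± 0.46 (SE), with an adjusted p of 2.6e-07 in edgeR's test. Pcdhgc4, the isoform on which survival of many interneurons depends, measured 0.476, 0.387, 0.423, 0.318 and 0.458 CPM in microglia, compared with 9.02, 6.17, 16.9, 17.8 and 21.03 CPM in bulk brain. For Pcdhgc4 the log2 difference was -5.09 ± 0.39 (SE), with an adjusted p of 1.5e-07 in edgeR's test. Pcdhgc5 measured 0.556, 0.155, 0.308, 0 and 0.416 CPM in microglia against 30.3, 9.31, 62.7, 70.9 and 70.5 CPM in bulk brain. It was the gamma gene with the highest CPM in bulk brain and showed the largest fall of the cluster, with a log2 difference of -7.39 ± 0.73 (SE) and an adjusted p of 1.6e-06 in edgeR's test. All 5 C-type genes of the alpha and gamma clusters together reached 1.09 ± 0.285 CPM in microglia, compared with 115 ± 65.3 CPM in bulk brain, a ratio of 0.951%.

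Alpha cluster genes were at or near 0 in microglia. The cluster lies at 37063237 to 37320714 on chromosome 18, plus strand. Its 14 genes gave 1 count in the 5 microglia libraries together and 9921 counts in bulk brain. That count belonged to Pcdhac2, in microglia replicate 3. The 12 variable alpha genes had 0 counts in microglia and 4681 in bulk brain, and with a floor of 3 counts over the microglia group they were at least 1166-fold lower. The alpha sum in bulk brain replicates 1 to 5 was 29.4, 7.87, 86.9, 89.2 and 87.2 CPM, so that replicate 2, the lowest, held 8.97% of the mean of replicates 3 to 5.

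Pcdhac2, the alpha isoform used by serotonergic neurons to space their axons, measured 11.2, 1.67, 42.2, 43.4 and 44.9 CPM in bulk brain replicates 1 to 5. Bulk brain exceeded microglia 3529-fold, with an exact 95% interval from 633 to 139417 that covers counting error only. Pcdhac1, the other alpha C-type gene, had no microglia count and measured 1.23, 0.259, 4.22, 4.33 and 5.52 CPM in bulk brain. This made it at least 129-fold lower in microglia. Pcdha9 and Pcdha12 were the variable alpha genes with the highest CPM in bulk brain, at 4.44 ± 2.44 and 4.48 ± 2.75 CPM. Both lacked microglia counts, which put them at least 184-fold and at least 185-fold lower. Only 7 of the 14 alpha genes passed the filter and all 7 were lower, against 43.9% of all genes tested. This count varied with the filter and the libraries, from 4 with a filter of 1 CPM in 5 libraries to 14 with no filter. It was 11 without any 1 of the microglia libraries or without bulk brain replicate 2, and 12 against bulk brain replicates 3 to 5 alone.

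Beta genes were lower in microglia as well, with a single gene standing well above the rest. The beta cluster lies between the alpha and gamma clusters, at 37397991 to 37657532 on chromosome 18, plus strand. Of its 22 genes, 9 had no microglia count, 20 were tested and all 20 were lower, against 43.9% of all genes tested. Of these 20, 19 passed the filter through their bulk brain counts alone. The summed level was 7.80 ± 1.65 CPM in microglia against 159 ± 39.9 CPM in bulk brain, or 4.90% of bulk brain. Pcdhb22 supplied most of the microglia sum, and the remaining 21 genes added up to 1.18 ± 0.656 CPM in microglia, compared with 145 ± 37.9 CPM in bulk brain, or 0.809%.

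Pcdhb22 is the last gene of the beta cluster and the one nearest to the gamma genes. It measured 5.32, 8.05, 7.01, 5.60 and 7.16 CPM in microglia against 12.3, 11.2, 14.5, 16.4 and 15.1 CPM in bulk brain. Levels in every microglia library were below those in every bulk brain library, and counts were well above the floor throughout. The log2 difference was -1.07 ± 0.17 (SE), with an adjusted p of 9.3e-05 in edgeR's test. Pcdhb20 measured 0.238, 0.116, 0.385, 0.0795 and 0.0832 CPM in microglia, compared with 13.9, 11.4, 13.6, 14.5 and 14.0 CPM in bulk brain. The fitted log2 difference was -6.18 ± 0.35 (SE), with an adjusted p of 1.1e-08 in edgeR's test. Pcdhb17, the beta gene with the highest CPM in bulk brain, ranged from 0 to 0.231 CPM in microglia and from 12.9 to 21.04 CPM in bulk brain, with a log2 difference of -7.26 ± 0.49 (SE). Pcdhb21, the neighbour of Pcdhb22, had no microglia count and measured 0.663 to 6.35 CPM in bulk brain, which put it at least 151-fold lower in microglia. Its exons overlap those of Pcdhb22.

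All 12 non-clustered protocadherins were lower in microglia, and none overlapped between groups. Of all genes tested, 43.9% were lower and 40.5% lay wholly below bulk brain. All 12 passed the filter through their bulk brain counts alone, so their count of lower genes was not used as evidence. Together they reached 1.98 ± 0.815 CPM in microglia against 925 ± 264 CPM in bulk brain, or 0.214%. The neuronal markers stood at 0.134% of bulk brain in sum, and singly at 0.0394% to 0.397%. Of the 12 non-clustered genes, 4 were above that highest neuronal marker ratio, namely Pcdh1, Pcdh18, Pcdh15 and Pcdh12. By the same measure 11 of 22 beta genes, 21 of the 21 gamma genes with counts and 0 of 14 alpha genes were above it. Several of the beta genes rest on few counts, as do Pcdh12, Pcdh15 and Pcdh18, with 6, 18 and 22 counts over the microglia group.

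The delta-1 protocadherins carry a motif that binds protein phosphatase 1 and include the most abundant members in bulk brain per kilobase of exon. Pcdh9 measured 0.159, 0.194, 0.308, 0.0397 and 0.0832 CPM in microglia, compared with 115, 83.8, 206, 207 and 205 CPM in bulk brain. Its log2 difference was -9.97 ± 0.45 (SE), with an adjusted p of 1.5e-09 in edgeR's test, and bulk brain replicates 1 and 2 were the low ones. Pcdh1, known also from airway and vascular lining, measured 0.952, 1.67, 0.154, 0.159 and 0.749 CPM in microglia against 146, 144, 174, 191 and 203 CPM in bulk brain. It had the highest microglia level of the non-clustered genes, uneven across libraries, and a log2 difference of -7.86 ± 0.50 (SE). Pcdh7, which acts in axon guidance and dendrite growth, ranged from 0 to 0.250 CPM in microglia and from 106 to 164 CPM in bulk brain, with a log2 difference of -9.87 ± 0.38 (SE). Pcdh11x, the X-linked member, ranged from 0 to 0.0832 CPM in microglia and from 12.1 to 35.9 CPM in bulk brain, with a log2 difference of -9.23 ± 0.58 (SE).

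The delta-2 protocadherins act in neuronal wiring, and several bind the WAVE actin-regulating complex. Pcdh8, also called arcadlin and induced by neuronal activity, had 0 counts in all microglia libraries. In bulk brain it measured 29.3, 31.1, 28.1, 28.8 and 26.4 CPM, the most even of the non-clustered genes, and it was at least 1209-fold lower in microglia. Pcdh10, needed for the growth of striatal and thalamocortical axons, measured 0.0794, 0.349, 0, 0.238 and 0.291 CPM in microglia, compared with 125, 110, 218, 234 and 227 CPM in bulk brain. For Pcdh10 the log2 difference was -9.88 ± 0.48 (SE), with an adjusted p of 3.0e-09 in edgeR's test.

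Promoter sequence could be shown for these genes from the RefSeq promoter table (GRCm38.p6), which held a window for 9 of the 70 members. Pcdh10 and Pcdh8 are shown because they are, respectively, the delta-2 gene with the highest CPM in bulk brain and the only non-clustered gene without a count in microglia. Each sequence gives the 250 bases before the gene start, 5′ to 3′ on the gene's strand, at chr3:45378148-45378397 on the plus strand for Pcdh10 and chr14:79771313-79771562 on the minus strand for Pcdh8. Capitals mark CGCT, the core of the conserved sequence element of clustered protocadherin promoters, or AGCG, its reverse complement.
Pcdh10: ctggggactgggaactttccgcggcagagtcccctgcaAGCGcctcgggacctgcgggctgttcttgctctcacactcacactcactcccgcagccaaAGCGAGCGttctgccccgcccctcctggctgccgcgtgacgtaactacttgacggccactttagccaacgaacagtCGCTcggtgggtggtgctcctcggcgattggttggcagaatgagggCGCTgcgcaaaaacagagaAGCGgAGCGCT
Pcdh8: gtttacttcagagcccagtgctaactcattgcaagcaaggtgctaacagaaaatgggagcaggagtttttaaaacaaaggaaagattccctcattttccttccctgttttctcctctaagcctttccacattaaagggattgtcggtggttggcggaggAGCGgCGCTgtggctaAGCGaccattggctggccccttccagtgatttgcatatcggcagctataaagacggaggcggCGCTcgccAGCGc
The Pcdh10 window held 8 matches at a GC content of 63.2%, and the Pcdh8 window held 5 at 51.2%. CGCT on either strand occurred in 55.7% of 32851 windows of the same length in the table and in 9 of the 9 member windows, so these letters are common in promoters. TTCAGCACC, the left part of the longer element bound by REST, searched on either strand, was present in 0.301% of all windows and in 0 of the 9.

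The remaining delta-2 genes were similarly low. Pcdh17, which acts at corticobasal synapses, ranged from 0.0397 to 0.308 CPM in microglia and from 41.7 to 133 CPM in bulk brain, with a log2 difference of -9.30 ± 0.57 (SE). Pcdh19, mutated in an X-linked epilepsy, ranged from 0.0397 to 0.194 CPM in microglia and from 32.9 to 58.7 CPM in bulk brain, with a log2 difference of -8.44 ± 0.34 (SE). Pcdh18 ranged from 0 to 0.387 CPM in microglia and from 5.93 to 11.6 CPM in bulk brain, and its log2 difference of -5.65 ± 0.56 (SE) was the smallest of the delta-2 genes.

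The other non-clustered genes are the outlying members of the family. Pcdh15, part of the tip link of inner ear hair cells and also expressed in oligodendrocyte precursors, measured 10.5, 7.78, 30.8, 36.2 and 35.8 CPM in bulk brain and at most 0.291 CPM in microglia. Its log2 difference was -7.36 ± 0.73 (SE). Pcdh20 had counts in microglia replicate 2 alone, at 0.310 CPM, and measured 21.5 to 41.2 CPM in bulk brain, with a log2 difference of -8.99 ± 0.62 (SE). That value rests on the 8 counts of a single library, and without microglia replicate 2 the group has no count of Pcdh20 and the fitted value is -13.00. Pcdh12, a protocadherin of vascular endothelium, was the least abundant non-clustered gene in bulk brain, at 0.465 to 1.37 CPM, and at most 0.0795 CPM in microglia. Its log2 difference of -4.06 ± 0.56 (SE) was the smallest among the non-clustered genes. Endothelial markers stood at 37.0% of bulk brain in microglia, or 22.4% without Pecam1, which was higher in microglia, and their part in the Pcdh12 value was not tested.

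**Figure D4:**
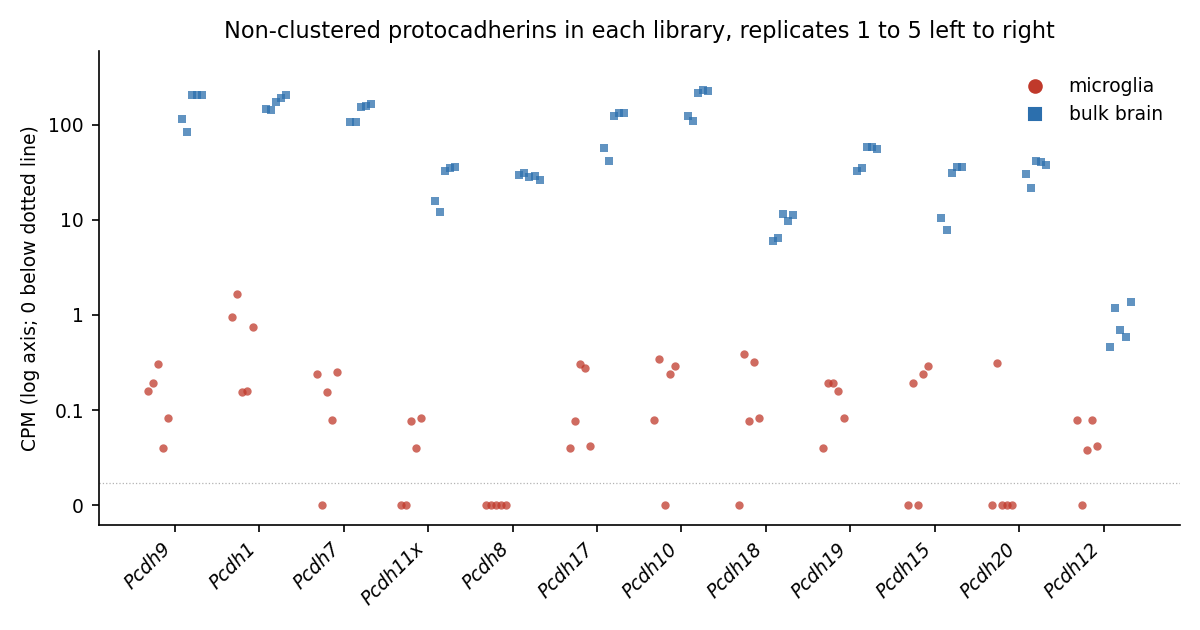
CPM (log axis, values of 0 below the dotted line) of the 12 non-clustered protocadherins in each library, circles for microglia and squares for bulk brain, replicates 1 to 5 from left to right. All microglia points lie below 2 CPM, Pcdh8 is at 0 in all 5 microglia libraries, and bulk brain replicates 1 and 2 lie below replicates 3 to 5 for all but Pcdh8 and Pcdh12.

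Bulk brain libraries differed among themselves in the protocadherins of the alpha and gamma clusters more than in those of other classes. As a share of the mean of replicates 3 to 5, replicate 2 held 8.97% of the alpha sum, 18.4% of the gamma sum, 56.5% of the beta sum, 58.9% of the delta-1 sum and 49.7% of the delta-2 sum. The same shares for replicate 1 were 33.6%, 46.4%, 68.8%, 65.0% and 55.2%. Over 18877 tested genes with counts in replicates 3 to 5, the median share was 98.2% in replicate 2 and 100.3% in replicate 1. TMM scaling itself brings the typical gene of each library to a similar level, so these medians do not show that the libraries were otherwise alike. Over the whole table, replicates 1 and 2 differed from 3 to 5 far more than 3 to 5 did among themselves. Of the 18877 genes, 7.45% had under 25% in replicate 2. Among tested protocadherins 17 of 21 gamma genes, 4 of 7 alpha genes and 2 of 20 beta genes were under 25% there. The neuronal marker sum in replicates 2 and 1 was 86.1% and 89.3% of that in replicates 3 to 5. The oligodendrocyte marker sum was at 135% and 126%, and the ependymal and choroid plexus marker sum at 229% and 177%. Single neuronal markers spread unevenly over the bulk brain libraries, Map2 from 539 to 1418 CPM and Snap25 from 1679 to 1805 CPM. Against replicates 1 and 2 alone the log2 differences of Pcdhgc5, Pcdhgc3 and Pcdhgc4 were -6.20, -4.93 and -4.28, and those of Pcdh9, Pcdh11x, Pcdh17 and Pcdh15 were -9.34, -8.38, -8.40 and -6.04, all still past the threshold. The part of cell makeup, dissection and RNA quality in these low levels was not tested.

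How many bases of a gene lie in no other annotated gene sets how far its counts can be read as its own. In the GENCODE vM21 annotation, whose exon length equals the deposited gene length for all 70 members, the median share of exon bases lying in no other gene on either strand was 46.4% in the alpha cluster, 54.7% in the gamma cluster and 100% in the beta cluster. All exon bases were the gene's own for 27 of the 70 members. Pcdhga10 had 0 own bases of 4732 and was also the single member with 0 counts in all 10 libraries. Pcdha4 had 404 own bases of 5768 and Pcdha11 had 1268 of 7535, and these gave 23 and 10 counts in all bulk brain libraries together. Values near 0 for these genes therefore cannot be compared with those of their neighbours. How reads on shared exons were counted, and with which strand setting, is not given in the labels or notes. An antisense transcript and the gene it overlaps therefore cannot be told apart. Pcdhga10 had 2613 bases in no other gene of its own strand, and still had 0 counts. The counting rule behind this was not tested. Pcdhb22 and Pcdhb21 share part of their exon bases, and Pcdhb22 had 6154 own bases of 6609.

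**Figure D5:**
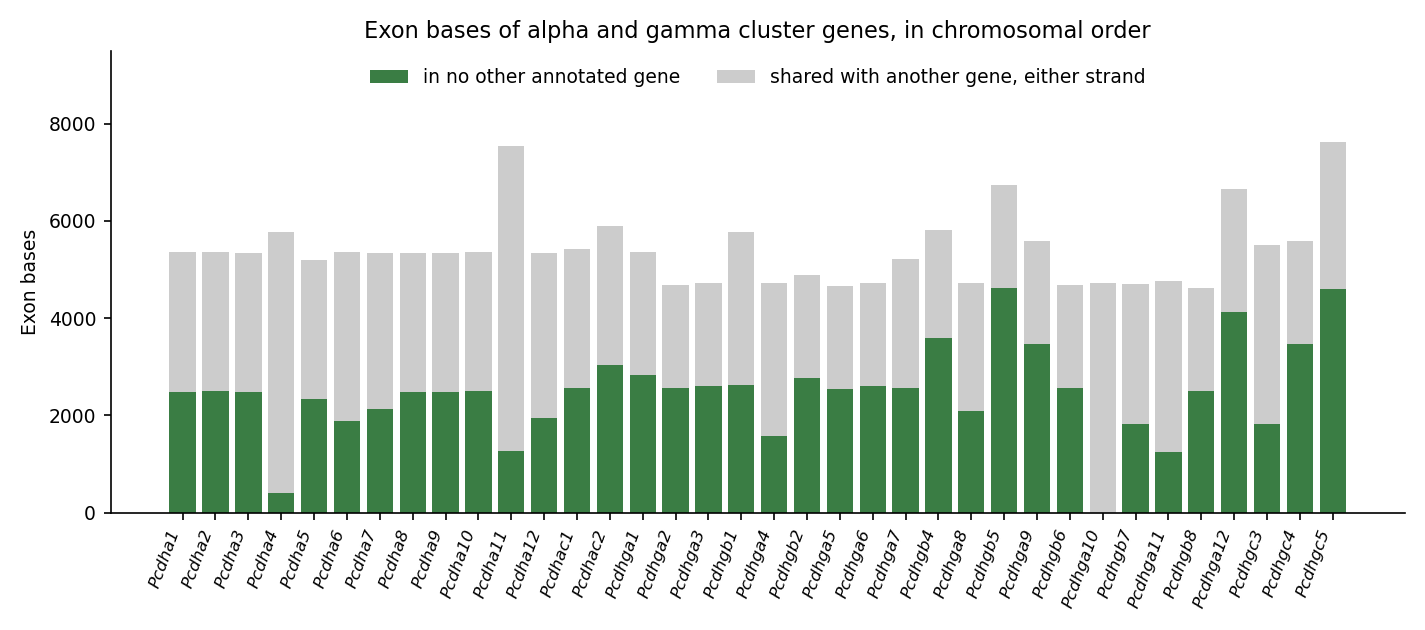
Exon bases of each alpha and gamma cluster gene in chromosomal order, split into bases in no other annotated gene (green) and bases shared with another gene on either strand (grey). Pcdhga10 has no bases of its own and Pcdha4 has 404, whereas the gamma genes have a median of 2587 bases of their own and the alpha genes one of 2475.

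Levels of different genes were compared as CPM per kilobase of own exon bases. This scale takes all counts of a gene to lie on its own bases, which was not tested. On this scale Pcdhgb2 was the highest protocadherin in microglia at 7.62 CPM per own kilobase, followed by Pcdhga1 at 2.81 and Pcdhgb4 at 2.23. Pcdhb22, the highest outside the gamma cluster, stood at 1.08. In bulk brain the order was led by Pcdh9 at 24.1, Pcdh1 at 19.5, Pcdh7 at 16.5, Pcdh10 at 11.6, Pcdhgc3 at 11.1, Pcdhgc5 at 10.6 and Pcdhac2 at 9.46. Across the 18 gamma A and B genes with own bases, the log2 level per own kilobase in microglia and that in bulk brain had a Pearson r of -0.18 and a Spearman rho of -0.25, a description across genes that share libraries. Order along the cluster and log2 difference had a rho of -0.08.

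Genes beside the gamma cluster gave further values. A long non-coding gene, 3222401L13Rik, ends 51 bases before the start of Pcdhga1 on the same strand. It measured 37.9, 34.5, 30.7, 30.6 and 33.3 CPM in microglia against 2.32, 1.61, 3.52, 3.56 and 3.08 CPM in bulk brain. The groups were far apart, and the log2 difference was 3.57 ± 0.22 (SE), with an adjusted p of 1.9e-08 in edgeR's test. Whether transcripts of 3222401L13Rik run on into Pcdhga1 was not tested. Taf7, a general transcription factor gene between the beta and gamma clusters on the opposite strand, was higher by 0.72 ± 0.17 (SE) on the log2 scale. Diaph1, an actin nucleator gene just beyond the gamma cluster, had a log2 difference of -0.45 ± 0.10 (SE). Gm26672, an antisense gene over the Pcdhga10 region, did not pass the test, with a log2 difference of 0.05 ± 0.39 (SE) and an adjusted p of 0.91 in edgeR's test. Slc25a2, also between the beta and gamma clusters, did not pass the filter on low counts, with 61 counts in microglia and 36 in bulk brain. These neighbours were taken for their position, once their values were known.

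Genes that open and close protocadherin promoters gave more higher than lower calls in microglia. In a list of 16 genes for CTCF, cohesin and its loaders and release factors, DNA methyltransferases and the repressors SMCHD1, SETDB1 and WIZ, 13 were higher, 1 lower and 2 not past the test, against 37.2% higher and 43.9% lower among all genes tested. The number higher was 10 with median-of-ratios scaling, library size alone, no filter or DESeq2, and 10 to 12 with single libraries left out. Their median log2 difference was 1.36. Nipbl, the cohesin loader, measured 316 ± 19.2 CPM in microglia, compared with 67.3 ± 31.0 CPM in bulk brain (SD, n = 5), a log2 difference of 2.23. Dnmt3b, which methylates the variable promoters in the embryo, measured 8.20 ± 0.838 CPM in microglia against 1.26 ± 0.242 CPM in bulk brain, a log2 difference of 2.70. The lower gene was Pds5b, a cohesin cofactor, at 94.5 ± 5.24 CPM in microglia, compared with 136 ± 39.7 CPM in bulk brain. The list's sum in bulk brain replicate 2 was 59.5% of that in replicates 3 to 5, and 3 genes were lower against replicates 3 to 5 alone, 2 without replicate 2 and 0 against replicates 1 and 2 alone.

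The partners through which protocadherins reach the actin skeleton differed between related gene copies. Of 13 genes of the WAVE complex and the Rac proteins that activate it, 7 were higher and 5 lower in microglia, against 37.2% and 43.9% of all genes tested. These counts do not set the list apart from other genes, and the named copies are given for their values. Nckap1l, the blood cell form of the complex's NAP1 subunit, measured 1544 ± 35.02 CPM in microglia against 8.19 ± 1.31 CPM in bulk brain, and Abi3 measured 73.8 ± 2.98 and 0.483 ± 0.127 CPM. Wasf1, the neuronal WAVE1 gene, measured 0.181 ± 0.106 CPM in microglia, compared with 167 ± 6.68 CPM in bulk brain, and Cyfip2 measured 1.81 ± 1.18 and 805 ± 249 CPM.

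Of 13 signalling partners, 5 were higher and 7 lower, which is near the shares over all genes tested and nothing particular to the list. Marcks, an actin regulator acting with gamma protocadherins in dendrites, measured 1745 ± 37.3 CPM in microglia against 213 ± 41.2 CPM in bulk brain, and Rock1 had a log2 difference of 1.88. Cdh2, the N-cadherin gene, had a log2 difference of -9.36. Nlgn1, a synaptic adhesion gene whose protein binds gamma protocadherins, had 2 counts in microglia, and bulk brain exceeded microglia 3771-fold, with an exact 95% interval from 1044 to 31140. Of 8 genes for ADAM10 and the gamma-secretase complex, which release protocadherin fragments from the membrane, 4 were higher and 2 lower. Over all genes tested 37.2% were higher and 43.9% lower, and counts from 8 genes do not set the list apart. Adam10 measured 463 ± 19.6 CPM in microglia, compared with 91.4 ± 20.4 CPM in bulk brain, and Ncstn rose by 1.91 on the log2 scale. Aph1b and Aph1c had log2 differences of -2.98 and -0.91.

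Other cadherins gave a reference for the family. All 19 classical cadherins listed were lower in microglia, against 43.9% of all genes tested. Many of them had few or no microglia counts, so this count describes the list and was not used as evidence. Their median log2 difference was -9.33, or -8.86 with the 4 genes that had no microglia count at their bound. Cdh7 and Cdh12 had no microglia count and were at least 1328-fold and at least 522-fold lower. Of 13 large cadherins and calsyntenins, 12 were tested, of which 10 were lower and 1 higher, against 43.9% and 37.2% of all genes tested. The higher gene was Cdh23, the tip-link partner of protocadherin 15, at 70.5 ± 4.28 CPM in microglia against 4.73 ± 1.53 CPM in bulk brain, a log2 difference of 3.90. Against bulk brain replicates 1 and 2 alone, 2 genes of this list were higher. Clstn3 and Clstn2, calsyntenin genes of the synapse, had log2 differences of -10.55 and -10.21.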

How the data were processed

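RNA was measured in 10 samples, 5 per group. Per the labels' protocols, Qiazol lysis and miRNeasy columns gave the RNA, poly-T beads selected messenger RNA, and random hexamers primed the cDNA. Per the submitters' processing notes, CASAVA, HISAT2 2.2.1, featureCounts 2.0 and the build GRCm39 (mm39) were named without saying what each did. The authors deposited raw read counts per gene without normalization, and all value columns matched a sample. For strand setting, annotation release and reads on shared exons, these sources state nothing.

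The 56748 genes were filtered with filterByExpr, scaled with TMM and tested with edgeR 4.0.16 (quasi-likelihood F-test, R 4.3.3), with Benjamini-Hochberg adjustment over 18969 genes and a threshold of 0.05. The fit was tested on simulated data, in which 5.85% of calls were false at the threshold of 0.05. Those data had less spread between libraries and far fewer changed genes than the real data. They therefore do not give the error rate here. SE is the absolute log2 difference over the square root of F. For genes with 0 counts in a group, folds were bounded with a floor of 3 counts over that group, and ratios on 1 to 3 counts have exact 95% intervals, both for counting error only. Chi-square values between replicate libraries were at least 5.17 per degree of freedom, above sampling noise, so all were kept. They were 7.11 to 11.4 in microglia and 5.17 to 7.21 among bulk brain replicates 3 to 5. Between bulk brain replicates 1 and 2 the value was 41.9, and across these bulk brain sets values ran from 93.9 to 246. This spread within bulk brain enters the SEs and p-values above. Own exon bases came from GENCODE vM21 (GRCm38), used for lengths only. Promoters are credited to RefSeq (GRCm38.p6).

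Named genes are, per cluster, the 3 highest in bulk brain, the 2 highest in microglia and the C-type isoforms, every non-clustered protocadherin, every member higher in microglia and, per pathway list, the 2 largest falls and 2 largest rises of genes that reached 5 CPM in their higher group. Pcdhga2, Pcdhga6, Pcdhga10, Pcdhga12, Pcdhgb5, Pcdhgb8, Pcdha4, Pcdha11 and Pcdhb21 lie outside this rule and were singled out once their values were known, as were the genes beside the gamma cluster. Members and lists were chosen with earlier results of these data known. DESeq2 1.42.0, limma-voom (limma 3.58.1), a replicate block, other scalings, other filters, single libraries left out and subsets of bulk brain were the alternatives.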

Additional observations from a re-analysis of the deposited data

Results flagged for a closer look

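Among 58 groups of 5 libraries compared for a library far from its fellows, 4 had one, and chance gives about 1 in 20. Pcdhac2 had 0.0385 CPM in microglia replicate 3 and 0 in the other microglia libraries. The sum of the alpha genes had the same single count, 0.0385 CPM in microglia replicate 3 and 0 elsewhere, and 1 count beside 4 libraries at 0 stands apart by construction, so neither says more than that count. Pcdh20 had 0.310 CPM in microglia replicate 2 and 0 in the other microglia libraries. Pcdhgc3 had 0.697 CPM in microglia replicate 2, against 0.278 to 0.385 CPM in the others.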

How the results depend on the processing

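Of 477 alternative values for 24 named protocadherins, 463 kept their direction and side of the threshold and 14, all for Pcdhgb4 and Pcdhga1, kept the direction but missed the threshold. None of these 477 values changed direction. The gamma A and B genes called lower were not among the 24. The B-type sum, also outside this set, did change direction with the bulk brain libraries used. Over 32 counts and sums, 578 of 610 alternative values stayed close to those reported. Close took in shifts such as 15 to 10 gamma genes lower with limma-voom. It also took in 54 to 47 protocadherins lower against bulk brain replicates 1 and 2 alone. Several of the counts were 0 in every alternative, so the share of close values does not measure how firm the results are. The number of protocadherins higher, all of them gamma genes, was 1 with median-of-ratios scaling and 1 to 3 with single libraries left out. Alpha genes lower numbered 14 with no filter, 4 with at least 1 CPM in 5 libraries, 12 against bulk brain replicates 3 to 5 alone, and 7 to 11 with single libraries left out. Against bulk brain replicates 1 and 2 alone, 8 gamma genes were lower, 0 promoter-choice genes were lower and 2 large cadherins were higher. Promoter-choice genes lower numbered 3 against replicates 3 to 5 alone and 1 to 2 with single libraries left out. The gamma sum as a share of bulk brain was 30.6% with median-of-ratios scaling, 30.7% with library size alone, 22.7% against replicates 3 to 5 alone, 72.9% against replicates 1 and 2 alone, and 26.5% to 35.8% with single libraries left out. The beta sum was 3.73% against replicates 3 to 5 alone and 6.26% against replicates 1 and 2 alone. The cause of these shifts was not tested.

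Samples of both groups share only a replicate number. Deviations of same-numbered samples from their group means had correlations from -0.021 to 0.010 over 5 pairs, and 0 of the 5 microglia samples correlated best with their own number. With limma-voom 49 members and 10 gamma genes were lower. With the replicate number as a block, 53 members were lower and 3 higher. At these depths 3 counts in a microglia library correspond to 0.115 to 0.125 CPM, so single-library microglia values below that are not distinguishable from 0.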
